A study of Mus musculus with 40 samples.

Results

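The genes of the proteasome, the protease complex that degrades ubiquitin-tagged proteins, were followed across the cortex and cerebellum of young and aged mice with different vitamin E supply. Their probes were taken by name, as every probe outside the control spots whose gene name is Psm followed by a letter from a to g and a digit, with the interferon-induced catalytic subunits Psmb8 and Psmb9 left out. This gave 59 probes for 47 genes, among 55589 probes and 36362 gene names on the array, and the rule reads the name alone. Of these genes 36 had 1 probe, 10 had 2 and Psme2 had 3. By role the probes covered the α ring and β ring of the 20S core, the ATPases and non-ATPases of the 19S cap, the chaperones that assemble both, the activators Psme1 to Psme4, the inhibitor Psmf1 and Psmc3ip, a recombination factor that shares only the name.

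Total RNA was profiled on 40 1-colour Agilent arrays, 4 for each of 10 groups, from C57Bl/6 mice. In each region the groups were Wild-type (WT) mice of 2Mo and of 29Mo (months of age) on the Normal diet with 36 mg α-tocopherol per kg, WT mice of 29Mo on a Vitamin E deficient diet, and Ttpa-/- mice of 29Mo on either the Vitamin E deficient diet or a Vitamin E supplemented diet with 600 mg α-tocopherol per kg. The product of Ttpa, α-tocopherol transfer protein, lets the liver pass dietary vitamin E to the blood, and Ttpa-/- mice are a genetic model of vitamin E deficiency. No Ttpa-/- mice on the Normal diet and no young Ttpa-/- mice were among the groups. The methods give a separate mouse for each array of a group, but whether a cortex and a cerebellum array of the same number came from the same mouse is not given in the sources used here, and the regions were compared as unpaired.

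The 26S proteasome is a barrel, the 20S core, with a 19S cap at its ends. The cap binds ubiquitin chains, removes them through the deubiquitinase Psmd14, and unfolds the protein with its ring of ATPases, after which the outer α rings admit it to the inner β rings, where the subunits encoded by Psmb5, Psmb6 and Psmb7 cut it. Interferon replaces these by Psmb8, Psmb9 and Psmb10 and raises the 11S activator of Psme1 and Psme2, and in neurons the turnover of damaged and synaptic proteins rests on the complex.

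Probe sequences are printed for 4 members on which the comparisons turn, from the array's own annotation (mm9), because they show which part of each transcript the values below stand for. The Psmb7 probe lies on the minus strand of chromosome 2 at chr2:38468966-38489385, a span of 20420 bases for a probe of 60, so it joins exons on both sides of an intron. The Psmd5 probe at chr2:34708108-34708167 (minus strand) and the Psmd14 probe at chr2:61599058-61599117 (plus strand) each match 1 unbroken stretch. The pair of Psma4 probes, at chr9:54802741-54804087 and chr9:54804685-54805444 on the plus strand, span 1347 and 760 bases and read different junctions of the same transcript.
Psmb7: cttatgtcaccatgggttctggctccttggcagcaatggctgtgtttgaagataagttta
Psmd5: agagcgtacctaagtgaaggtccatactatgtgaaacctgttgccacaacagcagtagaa
Psmd14: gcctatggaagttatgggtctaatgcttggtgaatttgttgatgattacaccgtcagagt
Psma4, first probe: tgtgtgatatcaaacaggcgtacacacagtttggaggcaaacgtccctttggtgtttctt
Psma4, second probe: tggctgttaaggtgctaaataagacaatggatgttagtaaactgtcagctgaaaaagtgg

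Promoter sequences were searched because members that move together may or may not share letters before their start sites. RefSeq promoters (GRCm38.p6) were found for 39 of the 47 genes, 42 promoters in all, and the 250 bases before each start were read on both strands, with matches allowed to overlap. The antioxidant response element core TGACNNNGC, through which Nrf1 and Nrf2 act, stood in 5 of the 42 (11.9%), those of Psmb5, Psmb6, Psmc6, Psmd12 and Psmd9, against 10.2% of all 32851 promoters. The CCAAT box, bound by NF-Y, stood in 14 of 42 (33.3%) against 33.8% of all. The interferon-stimulated response element core, a pair of GAAA separated by any 2 bases, stood in 3 of 42 (7.14%), Psmb3, Psmd4 and Psmd9, against 2.98% of all, and the gamma-interferon activated site TTCNNNGAA in 1 (2.38%), Psmg1, against 7.02%. Psme1, Psme2 and Psmb10 held none of the 4 motifs. A match is a description of letters and not a binding site. Shown are the 250 bases before the start of a catalytic subunit with the TGACNNNGC core, of an ATPase and the deubiquitinase with a CCAAT box and of an activator with none, all on the plus strand: Psmb6 at chr11:70525107-70525356, Psmc2 at chr5:21785025-21785274, Psmd14 at chr2:61711444-61711693 and Psme1 at chr14:55578244-55578493. Capitals mark the motif, which for Psmd14 is the CCAAT box read on the other strand.
Psmb6: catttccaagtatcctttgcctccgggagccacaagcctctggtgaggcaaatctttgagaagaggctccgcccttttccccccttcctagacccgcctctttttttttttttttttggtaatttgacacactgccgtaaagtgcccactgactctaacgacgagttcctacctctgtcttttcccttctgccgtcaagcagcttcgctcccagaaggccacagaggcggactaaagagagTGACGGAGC
Psmc2: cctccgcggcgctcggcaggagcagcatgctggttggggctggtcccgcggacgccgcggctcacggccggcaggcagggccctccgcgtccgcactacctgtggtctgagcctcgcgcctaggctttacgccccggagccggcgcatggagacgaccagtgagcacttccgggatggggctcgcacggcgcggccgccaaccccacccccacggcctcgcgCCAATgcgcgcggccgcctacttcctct
Psmd14: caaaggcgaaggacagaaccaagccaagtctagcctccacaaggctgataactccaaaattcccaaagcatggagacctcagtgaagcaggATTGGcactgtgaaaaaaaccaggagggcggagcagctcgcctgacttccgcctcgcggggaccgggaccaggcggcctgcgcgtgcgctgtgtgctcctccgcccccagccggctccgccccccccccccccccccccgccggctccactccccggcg
Psme1: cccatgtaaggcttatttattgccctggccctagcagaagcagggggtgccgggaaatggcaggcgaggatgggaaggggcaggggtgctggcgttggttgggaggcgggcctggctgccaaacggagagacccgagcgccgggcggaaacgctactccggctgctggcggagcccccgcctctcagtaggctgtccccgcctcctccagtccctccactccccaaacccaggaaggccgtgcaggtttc

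All values below are log2 signals over the 75th percentile of the same array, so a value of 0 is the level of that percentile, and levels of different probes are not set against each other. Differences are log2 differences of group means ± SE with 4 arrays a group, tested with limma across all probes and passing at a Benjamini-Hochberg adjusted p under 0.05. The 75th percentile ran from 365 to 925 raw units over the arrays, 51.4% to 61.4% of probes were well above background, and arrays of a group correlated at 0.973 to 0.993. The labels were checked with Ttpa, whose more sensitive probe was above background on all 4 arrays of each of the 3 WT cerebellum groups (group means -3.01, -3.34 and -3.78) but on 0 of 4 Ttpa-/- deficient and 1 of 4 Ttpa-/- supplemented cerebellum arrays (-6.76 and -5.67). In cortex it was above background on 1 of the 12 WT arrays and on none of the 8 Ttpa-/- arrays, so the cortex genotypes were not checked this way. The other Ttpa probe was above background on 1 array alone, of Ttpa-/- deficient cerebellum (-2.67). That call goes against the check, and this probe was at background in every WT group. The forebrain markers Neurod6 and Tbr1 were higher in cortex and the cerebellar markers Pcp2, Cbln1, Gabra6 and Zic1 lower, at both ages. Each slide held 2 groups, so outside the ageing comparison in cortex, the deficient diet in WT cerebellum and the supplement in cerebellum, slide and condition cannot be told apart.

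Proteasome transcripts were present everywhere and varied little. Of the 59 probes 57 were well above background on all 40 arrays, and the exceptions were Psmb11, the thymus subunit, above background on 0 arrays, and Psma8, the testis subunit, on 1. The distance between the lowest and the highest of the 10 group means had a median of 0.44 over the 57 probes and was under 1 (a factor of 2) for 52 of them (91.2%), against a median of 0.79 and 64.3% for the 24803 probes above background on all arrays. The steadiest were Psmg3, a core assembly chaperone, at 0.237, and the ATPase Psmc5 at 0.244. The widest were the activator Psme1 at 1.45, from 1.90 in young cerebellum to 3.35 in Ttpa-/- deficient cortex, and the inducible subunit Psmb10 at 1.37, from 3.34 to 4.71. The nuclear activator Psme4 (PA200) followed with 1.16.

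The members also moved together from array to array. After removal of the group means, the correlation of a member probe with the mean of the others over the 40 arrays had a median of 0.65, and 39 of 57 (68.42%) lay over 0.5, against a median of 0.16 and 16.96% for 24746 other probes. These points share the array, its RNA and its scaling, and the values are a description. Psmb6 (0.897), Psmb4 (0.896) and Psmc2 (0.889) were closest to the rest, and the lowest values were those of the dimmest Psme2 probe (-0.582), of both Psme4 probes (-0.164 on the brighter and -0.339 on the other) and of Psme3 (0.001). The probes of a gene with several mostly ran alike, as for Psmb5 (r = 0.90 over 40 arrays) and for Psmc2 (0.97, on probes that share most of their bases). Psmd10 (0.14) and Psme2 (0.30 between its brighter probes) were exceptions, and the dimmest Psme2 probe, annotated across 219297 bases of chromosome 14, ran from -4.03 to -0.88 and followed neither of the others (-0.01 and -0.32).

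**Figure D1:**
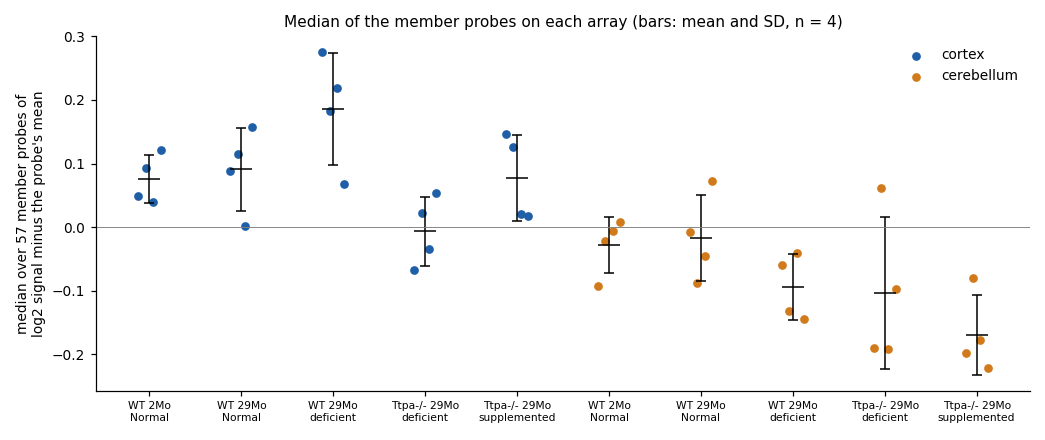
Each point is 1 array, the vertical axis the median over the 57 member probes of the log2 signal minus the probe's mean over all arrays, and bars give the group mean and SD (n = 4). The WT deficient cortex group is highest (mean 0.19) and the Ttpa-/- supplemented cerebellum group lowest (-0.17); the 4 Ttpa-/- deficient cortex arrays, between -0.07 and 0.05, lie below all 4 WT deficient ones.

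The first comparison set cortex against cerebellum in WT mice on the Normal diet. At 2Mo 18 of the 57 members were higher in cortex and 2 lower, where 32.6% of 30203 probes passed as higher and 29.9% as lower, and at 29Mo 20 were higher and 4 lower, where 27.9% and 28.4% of 30859 probes did. The share that was higher was therefore near that of all probes and the share that was lower was well under it. The median difference of the members was 0.08 at 2Mo and 0.13 at 29Mo, against 0.02 and -0.01 for all probes. Quantile normalization moved the member medians to -0.01 and 0.00, and those of all probes to -0.02 and -0.05. It moved the split at 29Mo to 8 higher and 12 lower, and at 2Mo to 8 and 7. At both ages 14 probes of 12 genes passed, all higher in cortex. In bulk tissue more of a transcript per cell and more cells that hold it cannot be told apart.

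The inducible subunit Psmb10 differed most. It stood at 4.51, 4.64, 4.43 and 4.81 in young cortex and at 3.25, 3.33, 3.34 and 3.45 in young cerebellum. The groups were far apart, and the difference was 1.25 ± 0.10 (adjusted p = 1.88e-12) at 2Mo, a 2.39-fold difference, and 0.82 ± 0.10 (adjusted p = 2.95e-08) at 29Mo. The activator subunit Psme1 stood at 2.83, 2.90, 2.78 and 2.71 in young cortex against 1.83, 1.77, 1.92 and 2.09 in young cerebellum, again without overlap. It differed by 0.90 ± 0.09 (adjusted p = 7.76e-11) at 2Mo and by 0.65 ± 0.09 (adjusted p = 8.96e-08) at 29Mo. These were the only members past a fold of 1.5 at either age, a size that 38.4% of all probes passed at 2Mo and 33.6% at 29Mo. The smaller differences lay in the body of the complex: the cap subunit Psmd13 was higher in cortex by 0.44 and 0.43, the α subunit Psma5 by 0.33 and 0.35, and the catalytic subunit Psmb5 by 0.32 and 0.20 on its brighter probe. With quantile normalization the Psmb5 difference at 29Mo was -0.00359 (adjusted p = 0.960). The deubiquitinase Psmd14 was higher by 0.25 (adjusted p = 0.0235) and 0.22 (adjusted p = 0.0427).

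Of the 6 member probes that were lower in cortex at 2Mo or 29Mo, 3 were for chaperones of the core. Psmg2 at 2Mo (-0.24 ± 0.08, adjusted p = 0.0142) and Psmg1 at 29Mo (-0.26 ± 0.08, adjusted p = 0.00559; second probe -0.20, adjusted p = 0.0496) were lower in cortex, while the other core chaperone probes did not pass, and Psmg3 was at 0.05 at 2Mo and -0.02 at 29Mo. The cap subunit Psmd8 was lower at 2Mo (-0.23 ± 0.10, adjusted p = 0.0430), and at 29Mo the second probe of Psme4 (-0.43 ± 0.15, adjusted p = 0.0135) and Psmc3ip (-0.39 ± 0.12, adjusted p = 0.00489) were lower. Markers of other cells differed beside these members at both ages. Microglia markers were higher in cortex, 6 of 7 at 2Mo (summed linear level 124 to 146 in cortex, 82.2 to 88.3 in cerebellum) and 5 of 7 at 29Mo (112 to 149 against 87.6 to 103). Astrocyte markers were lower in cortex, 3 of 5 at 2Mo (71.6 to 91.6 against 201 to 226) and 4 of 5 at 29Mo (each cortex array under the 199 to 250 of cerebellum). Blood markers were lower in cortex too, 2 of the 2 tested at 2Mo (0.434 to 1.97 against 3.06 to 7.46) and 3 of 3 at 29Mo (4.69 to 11.1 against 11.9 to 84.4). Of 5 choroid plexus markers, Otx2 was lower at 2Mo (-2.36) and at 29Mo (-3.04), and the other 4 were higher at 29Mo (summed over the list 4.62 to 145 against 3.71 to 4.33, with Ttr higher by 8.87). Striatal markers were higher in cortex for 4 of 5 at 2Mo (27.1 to 37.3 against 20.6 to 23.6), while at 29Mo 2 were higher and Ppp1r1b lower (19.3 to 22.6 against 21.4 to 29.7). Of 4 neuron markers, Syt1 and Tubb3 were higher at both ages and Rbfox3 lower at 2Mo (378 to 465 against 267 to 286 at 2Mo, 366 to 396 against 231 to 262 at 29Mo). None of 5 oligodendrocyte markers passed at either age, and 6 of 9 interferon-stimulated genes were lower in cortex at 29Mo (16.2 to 24.4 against 27.6 to 40.4) and none passed at 2Mo. The part of these cells and genes in the member differences was not tested. Scaling to the median in place of the 75th percentile left 4 members at 2Mo and 7 at 29Mo.

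**Figure D2:**
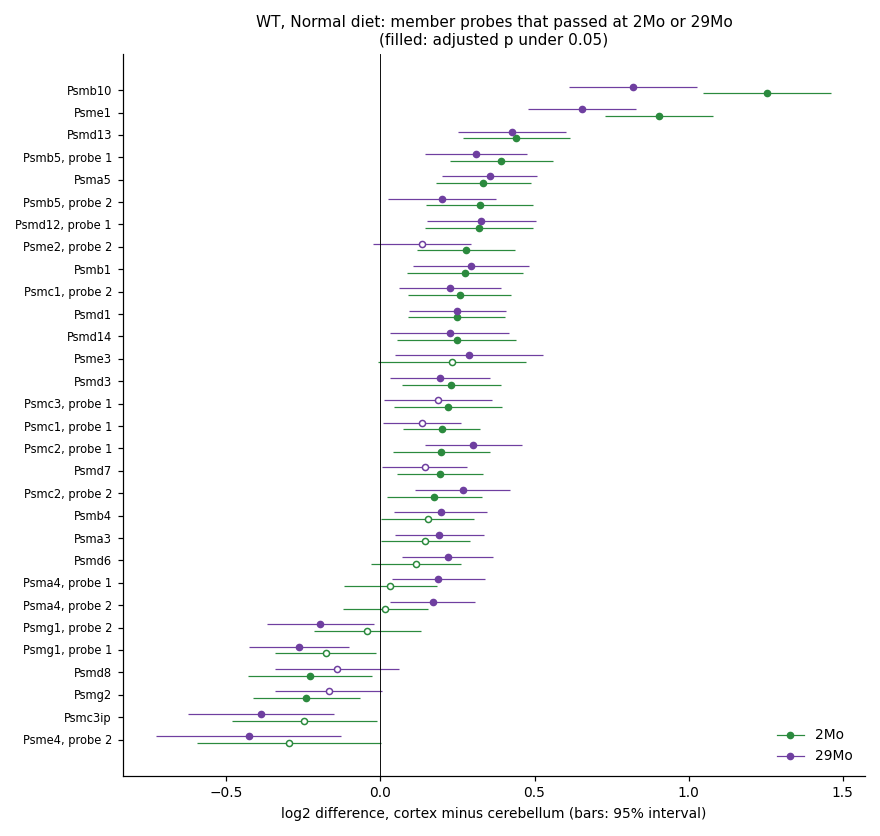
Log2 difference, cortex minus cerebellum in WT mice on the Normal diet, with its 95% interval, for the 30 member probes that passed at 2Mo (green) or 29Mo (purple); filled points passed. Psmb10 and Psme1 lie furthest right at both ages and Psmg1, Psmg2, Psmd8, Psmc3ip and Psme4 lie left of 0.

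Ageing was then compared in WT mice on the Normal diet. In cortex none of the 57 members passed, where 4.14% of 28043 probes did, and 3 had an unadjusted p under 0.05. In cerebellum 4 probes of 3 genes rose, Psme1, Psme2 and Psmb10, where 6.93% of 30627 probes rose, and none fell. The member medians, 0.01 in both regions, were close to those of all probes (-0.03 and -0.01). With scaling to the median they were -0.03 in cortex and -0.05 in cerebellum, against -0.07 in each region for all probes. No subunit of the constitutive core or of the cap passed in either region. In cerebellum Psme1 stood at 1.83, 1.77, 1.92 and 2.09 at 2Mo and at 2.42, 2.18, 2.35 and 2.46 at 29Mo. The ages did not overlap, and the rise was 0.45 ± 0.09 (adjusted p = 0.000419). Psmb10 went from 3.25, 3.33, 3.34 and 3.45 to 3.85, 3.54, 3.74 and 3.75, also without overlap, and rose by 0.38 ± 0.10 (adjusted p = 0.0131). Psme2, the partner of Psme1, rose by 0.26 ± 0.09 (adjusted p = 0.0499) and on its second probe by 0.27 ± 0.08 (adjusted p = 0.0201).

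In cortex Psme1 differed by 0.20 (95% interval 0.03 to 0.38, adjusted p = 0.239) and Psmb10 by -0.06 (95% interval -0.27 to 0.15, adjusted p = 0.874), and neither passed. The difference between the regions in the effect of age did not pass for Psmb10 (-0.44, adjusted p = 0.142) or Psme1 (-0.25, adjusted p = 0.415), and 0 of 57 members passed it, where 1.83% of 31372 probes did. Psme4 was lower with age in both regions without passing (-0.36, adjusted p = 0.190 in cortex, -0.40, adjusted p = 0.0676 in cerebellum). The subunits left out by the rule, Psmb8 and Psmb9, rose by 1.91 and 1.40 in cerebellum and by 0.95 and 0.88 in cortex. Beside the cerebellar rise, 8 of 9 interferon-stimulated genes rose (median 1.42; their summed level went from between 10.5 and 14.8 to between 27.6 and 40.4 on the linear scale) and 5 of 7 microglia markers rose (summed level 82.2 to 88.3 at 2Mo, 87.6 to 103 at 29Mo). The choroid plexus markers Ttr (-7.70) and Kl (-2.30) fell (list 6.20 to 238 at 2Mo, 3.71 to 4.33 at 29Mo), and the blood markers Alas2 (2.67) and Hbb-b1 (2.58) rose (3.06 to 7.46 and 11.9 to 84.4). Of 5 astrocyte markers Gfap rose (1.87) and Slc1a3 fell (-0.32), with summed levels of 201 to 226 and 199 to 250. The neuron markers Cbln1 (-0.52), Gabra6 (-0.42) and Rbfox3 (-0.36) fell, the first 2 from a list of cerebellar neurons (512 to 613 and 437 to 481), and the striatal markers Tac1 (2.39) and Drd2 (0.99) rose (20.6 to 23.6 and 21.4 to 29.7). None of 5 oligodendrocyte markers passed. The part of these cells in the rise of the members was not tested. Scaling to the median left none of the 4 probes, 1 was left without WT 29Mo replicate 1, and 2 without WT 29Mo replicate 4 or WT 2Mo replicate 1.

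The deficient diet alone, in WT mice of 29Mo, gave no passing member in either region. In cortex 0 of 57 passed, where 0.340% of 28254 probes did, 11 had an unadjusted p under 0.05, and 47 of 57 differences were above 0 with a median of 0.11 against 0.01 for all probes. The counts at an unadjusted p, here and in the other comparisons, have no share of all probes beside them. The same holds for the count above 0 here. These counts are a description and not a result about the members. The largest was that of the catalytic subunit Psmb7, 0.33 (95% interval 0.12 to 0.54, adjusted p = 0.116), with values of 3.33, 3.33, 3.23 and 3.52 on the Normal and 3.83, 3.74, 3.55 and 3.63 on the deficient diet that did not overlap. The 2 probes of the cap chaperone Psmd9 came next, at 0.33 (95% interval 0.10 to 0.56, adjusted p = 0.147) and 0.31 (95% interval 0.08 to 0.54, adjusted p = 0.170). In cerebellum, on 1 slide, 0 of 57 passed, where 4.58% of 30990 did, 7 had an unadjusted p under 0.05, and the median was -0.08 against -0.01 for all probes. With scaling to the median, all probes there had a median of -0.19 and the members of -0.26. The largest cerebellar differences of probes other than the dim Psme2 one were those of the second Psme4 probe, 0.45 (95% interval 0.15 to 0.75, adjusted p = 0.0677), and Psme3, 0.30 (95% interval 0.06 to 0.54, adjusted p = 0.132).

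Ttpa loss was compared next with both genotypes on the deficient diet. In cortex of 29Mo, 17 member probes of 14 genes were lower in Ttpa-/- mice and none was higher, where 7.45% of 29061 probes were lower and 5.53% higher, and 49 of 57 members lay below 0 (86.0%) against 51.1% of all probes. The median difference was -0.17 for members and -0.01 for all probes and was below 0 under each scaling tried. By role, 7 of 8 α ring probes fell (median -0.27), as did 2 of 8 of the constitutive β ring (-0.17), 2 of 9 of the ATPases (-0.18), 4 of 12 of the non-ATPases (-0.12), 1 of 7 of the activators (-0.16) and Psmb10, while none of the 10 probes of assembly chaperones passed. Changes were small, and Psme4 alone passed a fold of 1.5, as 3.07% of probes did.

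Psme4, the large activator of the nuclear proteasome, stood at -0.22, -0.49, -0.56 and -0.93 in WT and at -1.42, -1.21, -1.17 and -1.51 in Ttpa-/- cortex. Every Ttpa-/- array was below every WT array, and the difference was -0.77 ± 0.14 (adjusted p = 0.00112), a 1.71-fold difference. Its second probe, which is dimmer, differed by -0.31 ± 0.15 (adjusted p = 0.159). The ATPase Psmc2 stood at 4.99, 4.85, 4.83 and 4.60 in WT and at 4.38, 4.50, 4.42 and 4.53 in Ttpa-/- mice, without overlap. It differed by -0.36 ± 0.08 (adjusted p = 0.00293) and on its second probe by -0.29 ± 0.07 (adjusted p = 0.0126). The Psmc2 probes share most of their bases, so the second is no separate reading. The deubiquitinase Psmd14 stood at 2.75, 2.48, 2.46 and 2.37 against 2.14, 2.19, 2.12 and 2.27, again apart, and differed by -0.34 ± 0.09 (adjusted p = 0.0186). Psmd12, a scaffold subunit of the lid, differed by -0.32 ± 0.09 (adjusted p = 0.0136), with 1.21, 1.03, 1.16 and 1.01 in WT and 0.72, 0.78, 0.82 and 0.79 in Ttpa-/- arrays. Psmd4, the ubiquitin receptor, differed by -0.27 ± 0.08 (adjusted p = 0.0196) with overlapping arrays.

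Among the α subunits, which form the gate of the core, Psma7 stood at 5.29, 5.23, 5.24 and 5.03 in WT and 4.75, 4.89, 4.81 and 5.05 in Ttpa-/- cortex, where 1 array of each group overlapped. It differed by -0.32 ± 0.08 (adjusted p = 0.00836). Psma2 stood at 5.85, 5.69, 5.79 and 5.51 against 5.27, 5.47, 5.33 and 5.49, with the lowest WT array just above the highest Ttpa-/- one, and differed by -0.32 ± 0.08 (adjusted p = 0.00977). The pair of Psma4 probes printed above gave -0.28 and -0.27, both passing and both without overlap. Psma6, Psma5 and Psma1 also fell, with differences of -0.26, -0.25 and -0.23, and Psma3 at -0.17 (adjusted p = 0.101) did not pass.

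Of the constitutive catalytic subunits only Psmb6 passed. Psmb6, of the caspase-like site, stood at 6.08, 5.98, 5.94 and 5.82 in WT and 5.63, 5.71, 5.62 and 5.77 in Ttpa-/- mice and fell, with a difference of -0.27 ± 0.08 (adjusted p = 0.0203) and no overlap. Psmb5, of the chymotrypsin-like site, differed by -0.10 (95% interval -0.28 to 0.07, adjusted p = 0.438), and Psmb7, of the trypsin-like site, by 0.14 (95% interval -0.07 to 0.36, adjusted p = 0.367). Psmb10, the inducible counterpart of Psmb7, fell with a difference of -0.31 ± 0.10 (adjusted p = 0.0436), and its groups overlapped. The structural subunit Psmb1 fell as well (-0.31 ± 0.09, adjusted p = 0.0243). At the other end, Psme3, the nuclear activator also called PA28γ, was 0.30 (95% interval 0.06 to 0.54, adjusted p = 0.0839), Psmd9 0.21 and Psmd5 0.17, and Psme1 0.14 and Psme2 -0.16 did not pass either.

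How many of these calls were made depended on scaling, on the error estimate and on single arrays. Scaling to the median left 1 of 17, a fit of the 2 groups alone and the methods' t-test with Benjamini-Hochberg adjustment left 0, and the count was 3 without WT deficient replicate 1, 5 without Ttpa-/- deficient replicate 1, 8 without its replicate 3, 10 without WT deficient replicate 3 and 26 without WT deficient replicate 4. Psme4, Psmc2 and Psma7 passed whichever of the 8 arrays was left out.

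**Figure D3:**
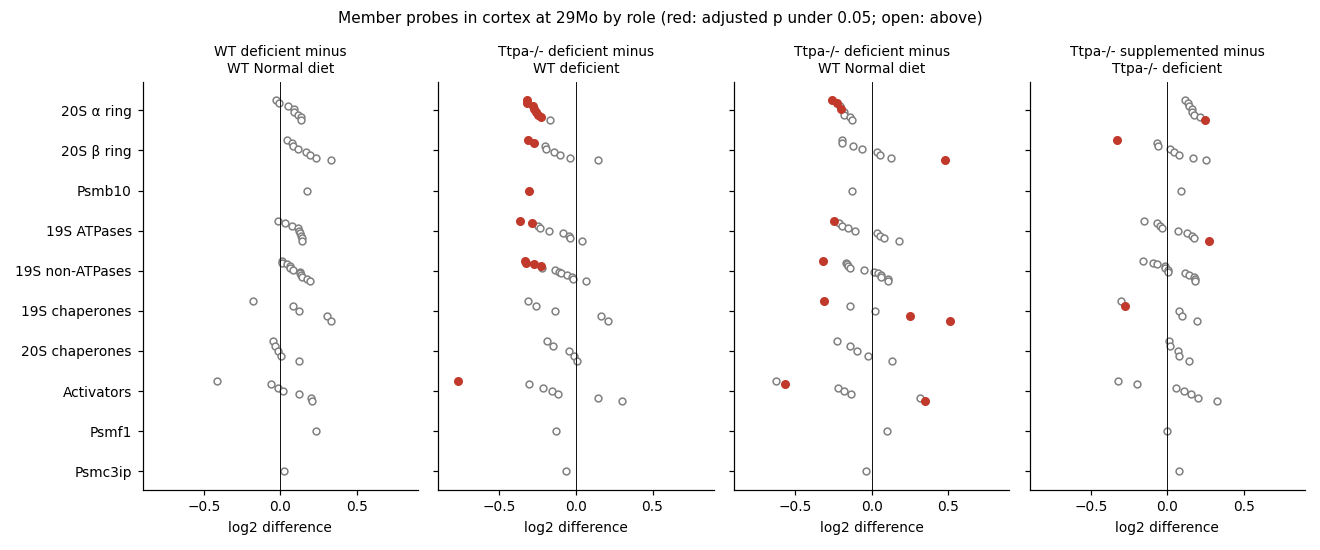
Log2 differences of the member probes in cortex at 29Mo, by role, for the 4 comparisons of diet and genotype named above each panel; each point is a probe and red points passed. With WT deficient mice as the reference (the second panel) the red points all lie left of 0 and make up 7 of the 8 points of the α ring row, whereas against WT mice on the Normal diet (the third panel) 7 lie left and 4 right of 0.

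Against WT mice of 29Mo on the Normal diet, the Ttpa-/- deficient mice were compared next. The Ttpa-/- arrays are those of the preceding comparison, so the results are set side by side and their likeness is no second result. In cortex 4 members were higher and 7 lower, where 9.45% of 28913 probes were higher and 9.56% lower. The member median was -0.13 against -0.02 for all probes, and all 8 α ring probes lay below 0 (median -0.19), 3 of them passing. The count of 8 below 0 has no share of all probes beside it and is a description. Quantile normalization turned the split to 9 higher and 6 lower, and scaling to the median left 2 higher and 1 lower. The members that rose were Psmb7, Psme1 and the cap chaperones Psmd9 and Psmd5.

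Psmb7 stood at 3.33, 3.33, 3.23 and 3.52 in WT cortex on the Normal diet and at 3.86, 3.98, 3.91 and 3.58 in Ttpa-/- deficient cortex. The groups did not overlap, and it rose by 0.48 ± 0.10 (adjusted p = 0.00184), a 1.39-fold difference. In cerebellum Psmb7 stood at 3.26, 3.26, 3.09 and 3.13 in WT and 3.10, 3.04, 2.89 and 2.54 in Ttpa-/- deficient mice, -0.29 ± 0.10 (adjusted p = 0.0591), so the direction was opposite and the cerebellar difference did not pass. The difference between the regions was 0.77 ± 0.15 (adjusted p = 0.00262). Psmd9, a chaperone of the cap's ATPase ring, stood at -0.09, -0.32, -0.27 and 0.03 in WT and 0.37, 0.49, 0.38 and 0.16 in Ttpa-/- deficient cortex, without overlap, and rose by 0.51 ± 0.11 (adjusted p = 0.00184). Its other, brighter probe gave 0.02 (adjusted p = 0.929), so the probes of this gene disagree, by up to 0.52 over the 12 comparisons of groups.

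Psme1 rose in cortex by 0.35 ± 0.09 (adjusted p = 0.00530), from 3.00, 2.95, 2.97 and 3.11 to 3.32, 3.45, 3.39 and 3.25 with no overlap. Psmd5, a chaperone that binds the ATPase Psmc2 during assembly, rose by 0.25 ± 0.08 (adjusted p = 0.0215), from 1.51, 1.56, 1.42 and 1.60 to 1.81, 1.74, 1.79 and 1.73. In cerebellum Psmd5 stood at 1.62, 1.51, 1.52 and 1.61 in WT and 1.49, 1.49, 1.29 and 1.25 in Ttpa-/- deficient mice, lower on each Ttpa-/- array, a difference of -0.19 ± 0.08 (adjusted p = 0.0997). For the effect of Ttpa loss with the deficient diet, 4 of 57 members differed between the regions, all higher in cortex, where 3.70% of 31560 probes did. They were Psmb7 (above), Psmd9 (0.60 ± 0.16, adjusted p = 0.0183), Psmd5 (0.43 ± 0.11, adjusted p = 0.0128) and Psme1 (0.41 ± 0.12, adjusted p = 0.0370). Psmb7 and Psmd9 passed a fold of 1.5, as 3.38% of probes did. On the other Psmd9 probe the difference between regions was 0.23 (adjusted p = 0.413). A fit of the 4 groups alone left 1 of these calls and scaling to the median 0. The count was 6 without cortex Ttpa-/- deficient replicate 4 or cerebellum Ttpa-/- deficient replicate 2, and 2 without cerebellum Ttpa-/- deficient replicate 4.

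The members that fell in this cortex comparison were Psme4 (-0.57 ± 0.14, adjusted p = 0.00621), Psmd12 (-0.32), Psmd10, a cap chaperone also known as gankyrin (-0.31 ± 0.07, adjusted p = 0.00293), Psma5 (-0.26), Psmc2 (-0.25), Psma7 (-0.23) and Psma3 (-0.20). Psme4 stood at -0.80, -0.69, -0.56 and -0.99 in WT cortex on the Normal diet against -1.42, -1.21, -1.17 and -1.51 in Ttpa-/- deficient cortex, without overlap. Psmd10 fell on 1 probe, while its other gave -0.14 (adjusted p = 0.336). Psme4, Psmc2 and Psmd12, the last on its dimmer probe, also passed on 1 probe each, and their other probes did not pass. Psmb5 (-0.06), Psmb6 (-0.19), Psmb10 (-0.13), Psmd14 (-0.16) and Psme2 (-0.22) did not pass. Psmb7, Psmd9 and Psme4 passed under each alternative that tested them at the adjusted p alone and with any 1 of the 8 arrays left out. The count of passing members was 6 without Ttpa-/- deficient replicate 1 or 3, 7 without WT Normal replicate 2 and 19 without Ttpa-/- deficient replicate 4.

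**Figure D4:**
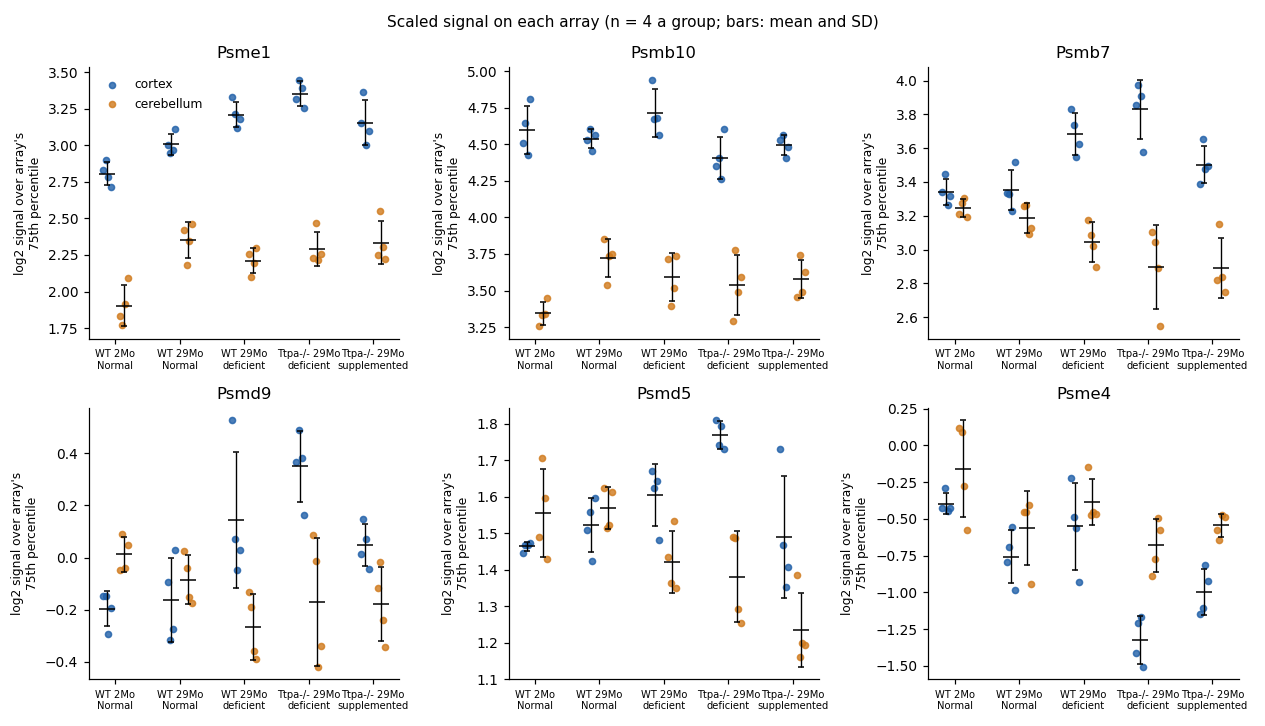
Log2 signal over the array's 75th percentile on every array for Psme1, Psmb10, Psmb7, Psmd9 (its dimmer probe), Psmd5 and Psme4 (its brighter probe), in cortex (blue) and cerebellum (orange), with group mean and SD (n = 4). Psme1 and Psmb10 are higher in cortex in every group; Psmb7 and Psmd5 are highest in Ttpa-/- deficient cortex, and Psme4 is lowest in Ttpa-/- deficient cortex.

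In cerebellum the same contrast gave 1 member higher and 2 lower, where 6.78% of 30604 probes were higher and 6.40% lower. Psme3 rose: it stood at 0.34, 0.41, 0.35 and 0.43 in WT mice on the Normal diet and at 0.80, 1.05, 1.04 and 0.79 in Ttpa-/- deficient mice. The arrays did not overlap, and the rise was 0.54 ± 0.12 (adjusted p = 0.00270). In cortex Psme3 was 0.32 ± 0.12 (adjusted p = 0.0553) in the same contrast. The α subunits Psma6 (-0.28 ± 0.08, adjusted p = 0.0210) and Psma4 (-0.24 ± 0.07, adjusted p = 0.0278) fell. With the deficient diet on both sides no cerebellar member passed, where 12.8% of 30552 probes did and 9 members had an unadjusted p under 0.05, and the member median was -0.01, as for all probes. With scaling to the median, all probes and the members there had a median of 0.17. Without Ttpa-/- deficient replicate 2 the counts were 12 and 3 in place of 3 and 0, the first was 1 without WT Normal replicate 4 or Ttpa-/- deficient replicate 3 or 4, and the second 1 or 2 without WT deficient replicate 2 or 3 or Ttpa-/- deficient replicate 3 or 4.

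The supplemented diet was compared with the deficient diet in Ttpa-/- mice of 29Mo. In cortex 2 members were higher and 2 lower on the supplement, where 6.76% of 29077 probes were higher and 7.33% lower. Psma7 stood at 4.75, 4.89, 4.81 and 5.05 on the deficient and 5.14, 5.11, 5.14 and 5.09 on the supplemented diet, just apart, and rose by 0.25 ± 0.08 (adjusted p = 0.0334). Psmc2, on its dimmer probe, stood at 4.38, 4.50, 4.42 and 4.53 and 4.82, 4.78, 4.65 and 4.66, also apart, and rose by 0.27 ± 0.08 (adjusted p = 0.0170). Its brighter probe did not pass. Psmb7 was lower on the supplement, at 3.39, 3.65, 3.47 and 3.49, by -0.33 ± 0.10 (adjusted p = 0.0312), and Psmd5, at 1.73, 1.47, 1.35 and 1.41, by -0.28 ± 0.08 (adjusted p = 0.0140). Both overlapped the deficient group through 1 supplemented array. The Ttpa-/- deficient arrays serve here as the reference and in the earlier comparisons as the treated group, so opposite signs are built in and the values are only set side by side. Psme4 (0.33, adjusted p = 0.130) and Psme3 (-0.32, adjusted p = 0.0645) did not pass. The 4 calls became 0 with median scaling, with the 2 groups alone or without deficient replicate 1, 1 or 2 without deficient replicate 2 or 3 or supplemented replicate 1, 3 or 4, and 11 without deficient replicate 4. Of the cell type markers in cortex, the oligodendrocyte marker Mobp was higher on the supplement (1.08), with all 5 of its list between 0.29 and 1.08 (summed linear level 135 to 172 on the deficient and 201 to 260 on the supplemented diet), Zic1 was higher (0.45) and Pcp2 lower (-0.39), and the part of these cells in the 4 calls was not tested. In cerebellum, on 1 slide, no member passed, where 0.767% of 30643 probes did. There 4 members had an unadjusted p under 0.05, and the median was -0.06 against 0.01 for all probes.

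Genes that work beside the proteasome were read in the same comparisons from lists of other components, regulators, shuttle factors and ubiquitin genes. Not every gene of these lists that passed is named. In the Ttpa-/- against WT comparison in deficient cortex, 1 of 7 other components fell (Pomp, which matures the core, -0.23), as did 3 of 7 regulators, Foxo3 (-1.07), the Nrf1-processing enzyme Ngly1 (-0.42) and the Nrf2 inhibitor Keap1 (-0.36). Of 10 shuttle factors and segregase genes 4 fell, Ufd1l (-0.50), Ubqln1 (-0.36), Rad23b (-0.33) and Vcp (-0.33), and Ubqln4 rose (0.38). Of 6 ubiquitin genes Uba6 rose (0.55), and of 8 Nrf2 targets Srxn1 fell (-0.33). Of the cell type markers, 1 of 5 astrocyte markers fell (Aldh1l1, -0.32), 1 of 4 neuron markers fell (Syt1, -0.27), 1 of 7 microglia markers rose (P2ry12, 0.55) and none of 5 oligodendrocyte markers passed (summed linear level 147 to 205 in WT, 135 to 172 in Ttpa-/- mice). Against WT on the Normal diet, Pomp (-0.28) and Shfm1 (-0.22) fell, as did Nfe2l2, which encodes Nrf2 (-0.44), Keap1 (-0.24), Rad23b (-0.37) and Vcp (-0.36), Uba1 rose (0.28), and none of 8 Nrf2 targets passed. There 3 of 5 astrocyte markers also fell (Aqp4 -0.54, S100b -0.40, Aldh1l1 -0.30; summed linear level at least 90.2 in WT and 70.2 to 88.6 in Ttpa-/- deficient cortex), as did the neuron marker Syt1 (-0.32; list 366 to 396 against 323 to 360). The striatal markers Drd2 (0.94) and Ppp1r1b (0.69) rose (list 19.3 to 22.6 against 27.4 to 33.0), and so did Pcp2 (0.45), while no marker of oligodendrocytes, microglia, choroid plexus or blood passed. For the same contrast in cerebellum, Gfap (-0.64), the microglia marker Aif1 (-0.59) and the oligodendrocyte markers Mag (-0.66) and Mbp (-0.62) fell and Slc1a3 rose (0.27), and between the regions Slc1a3 (-0.41) and Drd2 (1.51) differed. The part of these cells in the member differences was not tested. Between the regions, Nfe2l1, which encodes Nrf1, also differed for this contrast (0.59, adjusted p = 0.0271), as did Ubb (0.32) and Uba1 (0.30). In WT mice on the Normal diet Nfe2l1 was higher in cortex than in cerebellum at 2Mo (0.89) and 29Mo (0.86). Keap1 was higher too at both ages, while Nfe2l2 and Foxo3 were lower, and Ngly1 was lower at 2Mo. Of the other lists Usp14 (1.04 at 2Mo, 0.75 at 29Mo) and Rad23b (0.64 at each age) were among those higher in cortex, and Uba6 was lower at 2Mo (-0.69). In Ttpa-/- cortex Vcp (0.29) and Ngly1 (0.41) were higher on the supplemented than on the deficient diet, and Uba1 (-0.21) was lower. The part of these genes was not tested either. With age Nfe2l2 rose by 0.78 in both regions. Of the 8 Nrf2 targets only Hmox1 passed with age, rising by 0.68 in cortex and 0.76 in cerebellum. The regulator Stat3 rose as well (0.39 in cortex, 0.36 in cerebellum), and Ngly1 fell in cerebellum (-0.40).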

How the data were processed

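Total RNA of cortex and cerebellum was hybridised to 40 1-colour Agilent mouse arrays, 4 for each of 10 groups, and groups were taken from the labels. The authors deposited the scanner output of each array, where intensity values were background-corrected by Feature Extraction (10.7.3.1 in the file headers, 10.1.1.1 in the submitters' processing notes), together with log2 values that the authors had normalized. Here the processed intensity of each spot was taken to log2, spots of a probe were averaged, control spots and probes flagged as outliers were left out, and the array's 75th percentile was subtracted. Once each probe of these was centred on its mean over the 40 arrays, the deposited log2 values differed from them by a median of 0.000850. The deposited values served as an alternative. Other columns of the scanner files gave probe names, positions (mm9) and flags.

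A model with 1 mean for each group was fitted to all 40 arrays with limma 3.58.1 (R 4.3.3). In each of 14 comparisons, 12 between groups and 2 between regions, p-values were adjusted by the Benjamini-Hochberg method over probes that every array of at least 1 compared group showed well above background. A probe passed at an adjusted p under 0.05, and fold changes over 1.5 were counted besides. The methods' fold threshold carries no test, and the design used here was chosen to give one. Precision is limited by the 4 arrays of a group. The scripts were tested on simulated data.

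The members and gene lists were chosen with earlier results of these data known. Genes named in the text were drawn from those past a fold of 1.5 and from the 3 highest and 3 lowest probes of a comparison. Psmb5, Psmb6, Psmb7, Psmb10, Psme1, Psme2, Psmd14 and Psme4 were considered besides. Not every such member is named in each comparison. The brightest probe mostly stood for a gene, but values of Psmd12, Psmc2 and Psmd9 were also taken from a dimmer one. Other members that passed are named for their role. The lists were other proteasome components, regulators, ubiquitin genes, shuttle factors, Nrf2 targets, interferon-stimulated genes and cell type markers.

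Alternatives were scaling to the median, quantile normalization, background correction by normexp (offset 50), the deposited log2 values, testing dim probes too, a block for the replicate number, the compared groups alone, 1 probe a gene name, the methods' t-test and leaving out each array. Slide as a block could not be fitted, since the design with slide has 14 columns and a rank of 10.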

Additional observations from a re-analysis of the deposited data

Results flagged for a closer look

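In 4 of 90 groups of 4 arrays examined for the named members, 1 array stood far from the other 3, about as many as the 1 in 20 that chance gives. Psme4 accounted for 3 of them. In WT cortex at 2Mo, replicate 2 was at -0.29 and the others between -0.45 and -0.42 (gap over range 0.856). In WT cerebellum at 29Mo on the Normal diet, replicate 4 was at -0.94 and the others between -0.46 and -0.41 (0.908). In WT cerebellum on the deficient diet, replicate 1 was at -0.15 and the others between -0.48 and -0.45 (0.929). The brightest Psme2 probe in WT cortex on the deficient diet was at 4.17 in replicate 1 and between 3.90 and 3.93 in the others (0.864). That array was also the one without which 3 in place of 17 members passed between genotypes in deficient cortex.

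The effect of Ttpa loss with the deficient diet differed between cortex and cerebellum, by the interaction term of the limma fit, for Psmb7 (0.77), Psmd9 (0.60, on 1 of its 2 probes), Psmd5 (0.43) and Psme1 (0.41). Psmb7, Psmd5 and Psmd9 were higher in cortex and lower in cerebellum in the means of the Ttpa-/- deficient mice, and the cerebellar difference of Psmb7 did not pass (adjusted p = 0.0591).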

How the results depend on the processing

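Of the differences of single named members, 140 kept their direction and call with scaling to the median, 152 with quantile normalization, 172 with the deposited log2 values and 168 with the replicate number as a block, which brought 5 more past the threshold. Scaling to the median left 22 others weaker and 11 otherwise changed. Quantile normalization left 3 weaker, 8 stronger, 2 reversed and 8 otherwise changed, and the deposited values left 1 weaker. With the block the counts of passing members stayed within 1.5 times of those given above (ageing in cerebellum 5, genotype in deficient cortex 21, region 21 at 2Mo and 24 at 29Mo, supplement in cortex 6, Ttpa loss with the deficient diet 11 in cortex and 4 in cerebellum, its difference between regions 4). The numbers were not taken as pairs: a same-numbered cortex and cerebellum array of a condition correlated over 0.1 in 13 of 20 pairs (-0.162 to 0.628) and best with each other in 12, which included all 4 pairs of the Ttpa-/- deficient mice (0.176 to 0.628), and no source used here gives a shared mouse.

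With scaling to the median, the counts were 0 (from 4) for ageing in cerebellum, 1 (from 17) for genotype in deficient cortex, 7 (from 24) and 4 (from 20) for region at 29Mo and 2Mo, 0 (from 4) for the supplement in cortex, 3 (from 11) and 0 (from 3) for Ttpa loss with the deficient diet in cortex and cerebellum, and 0 (from 4) for its difference between regions. With quantile normalization they were 1 (from 0) for ageing by region, 4 (from 0) for genotype in deficient cerebellum, 7 for the supplement in cortex, and 6 and 7 for Ttpa loss in cerebellum and its difference between regions. The 2 reversed results were Psmb5 at 29Mo (-0.00359, adjusted p = 0.960 by limma) and Psmb6 at 2Mo (-0.204, adjusted p = 0.000637 by limma), cortex against cerebellum, and quantile normalization split the region calls into 8 higher and 12 lower at 29Mo. Normexp gave 1 (from 0) for the deficient diet in WT cerebellum. With the compared groups alone, fewer arrays estimated the error, and the counts were 1 for ageing in cerebellum, 0 for genotype and for the supplement in cortex, 16 and 13 for region at 29Mo and 2Mo, 6 and 1 for Ttpa loss in cortex and cerebellum, and 1 for its difference between regions. The methods' t-test with Benjamini-Hochberg adjustment called 0 for genotype and for the supplement in cortex and 1 for Ttpa loss in cerebellum, and unadjusted it called 22, 20 and 6. Without the filter on dim probes the supplement in cortex had 2. A fold over 1.5 besides left 2 for each region comparison and for Ttpa loss by region, 1 for genotype in cortex and 0 for the rest.

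Leaving out each array gave 17 to 22 for region at 2Mo, 16 to 26 at 29Mo, 6 to 19 and 1 to 12 for Ttpa loss in cortex and cerebellum, 2 to 6 for its difference between regions, 3 to 26 and 0 to 3 for genotype in cortex and cerebellum, 0 to 11 for the supplement in cortex, 1 to 5 for ageing in cerebellum, and 0 for each other comparison. Where not said otherwise, the cause was not tested.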
